A study of Rattus norvegicus with 8 samples.

Results

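The 10 genes followed here belong to sugar breakdown and to the response to low oxygen, and were read across all arrays of rat kidney. The listed glycolytic enzymes were Hk1, Hk2, Pfkp, Pgk1, Pkm and Ldha, and the listed hypoxia response genes were Epas1, Egln3, Bnip3 and Adm. They were chosen by gene symbol, and 7 of the 10 had a probe set annotated with that symbol alone, out of 18166 genes measured in that way. The probe sets that carry the names Bnip3 and Pkm name other genes as well, no probe set here carries the name Hk1, and these 3 genes were not analysed here. The samples came from kidneys of male Wistar rats, 10 weeks old, and fall into 4 arrays of cortex and 4 of medulla. All of them carry one treatment label, ethylene glycol given every day and vitamin D given on alternate days for 1 week, so neither region has an untreated group and no effect of the treatment was measured. Ethylene glycol is converted to oxalate in the body. The labels do not tie the arrays to separate animals, and a replicate number is only a name within its region.

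Glycolysis splits glucose to pyruvate and yields ATP without oxygen, and lactate dehydrogenase turns pyruvate into lactate when the pathway has to keep running. When oxygen is scarce, the hypoxia-inducible factors (HIF) escape hydroxylation by the prolyl hydroxylases, avoid destruction through the von Hippel-Lindau protein and switch on glycolytic enzymes, glucose transporters and signals to blood vessels. In the kidney the proximal tubule of the cortex relies on oxidative metabolism, while the medulla works at low oxygen tension and the distal nephron depends more on glycolysis.

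In RefSeq's rat assembly GRCr8 the measured genes lie at chr4:116792258-116841275 (Hk2), chr17:68639749-68704055 (Pfkp), chrX:75336988-75352962 (Pgk1), chr1:106508092-106517512 (Ldha), chr6:13543252-13626147 (Epas1), chr6:77385549-77411015 (Egln3) and chr1:174164178-174182372 (Adm). Each was read by 1 probe set. The upstream sequences are shown for Ldha, Hk2 and Egln3, the 3 measured genes that varied most in whichever region they varied less. Each is the 250 bases before the start of the gene in that assembly, chr1:106507842-106508091 on the plus strand for Ldha, chr4:116841276-116841525 on the minus strand for Hk2 and chr6:77411016-77411265 on the minus strand for Egln3. Capitals mark the core of the hypoxia response element to which HIF binds, searched as ACGTG and GCGTG on both strands.
Ldha: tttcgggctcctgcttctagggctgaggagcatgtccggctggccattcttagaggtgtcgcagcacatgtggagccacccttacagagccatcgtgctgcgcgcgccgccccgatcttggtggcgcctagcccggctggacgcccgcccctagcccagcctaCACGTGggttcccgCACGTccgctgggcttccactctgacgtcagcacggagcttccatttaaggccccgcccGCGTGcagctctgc
Hk2: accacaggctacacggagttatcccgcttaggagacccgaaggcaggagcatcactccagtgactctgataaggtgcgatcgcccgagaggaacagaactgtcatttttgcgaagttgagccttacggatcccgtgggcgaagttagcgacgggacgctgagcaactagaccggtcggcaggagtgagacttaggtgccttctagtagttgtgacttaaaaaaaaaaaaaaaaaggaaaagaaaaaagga
Egln3: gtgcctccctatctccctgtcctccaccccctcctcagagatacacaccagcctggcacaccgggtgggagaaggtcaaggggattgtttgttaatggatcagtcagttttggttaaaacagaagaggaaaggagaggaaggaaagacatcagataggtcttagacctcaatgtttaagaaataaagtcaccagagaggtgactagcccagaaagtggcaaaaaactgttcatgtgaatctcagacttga
The Ldha sequence held 4 matches in 3 stretches, since the letters CACGTG read as ACGTG on both strands. Their first bases lay at positions -87, -86, -73 and -14 from the start. The Hk2 and Egln3 windows held 0. Of the 7 measured genes 6 had an entry, and the motif stood in 2 of them, Ldha and Pfkp, with 1 match in Pfkp. Either motif was found in 36.7% of all 33469 windows of this length and in 44.8% of the 16050 that belong to genes measured here, so a match is common, and neither its presence nor its absence says whether HIF acts on the gene.

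The arrays had median intensities between 34.1 and 34.7, or 5.09 to 5.12 on the log2 scale, and every level given here is log2 intensity. Detection calls were not used, and levels of different genes were not set against each other, because each gene has its own probes. The marker lists showed kidney tubule in both regions. The summed intensity of 10 proximal tubule markers ran from 10022 to 12488 on cortex arrays and from 7153 to 11733 on medulla arrays, and both regions thus held proximal tubule signal. The urea transporter gene Slc14a2, which marks the inner medullary collecting duct and was singled out after its values were seen, ran from 6.15 to 7.42 in medulla and from 4.80 to 5.88 in cortex. Cortex replicate 4 and medulla replicate 4 stood apart from the other arrays of their regions in tubular injury markers, of which 10 of 10 were measured. The summed injury signal came to 10520 on cortex replicate 4, where replicates 1 to 3 gave 1781 to 2364, and to 12774 on medulla replicate 4. Medulla replicate 3 stood between, at 6764, against 2456 and 1913 on medulla replicates 1 and 2.

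The entry step of glycolysis was read from Hk2 and Pfkp. Hk2, the inducible hexokinase that traps glucose in the cell, measured 5.48, 5.45, 5.44 and 5.82 on cortex replicates 1 to 4. On medulla replicates 1 to 4 it measured 5.66, 5.54, 5.77 and 6.02. Its highest value lay on the replicate 4 array in each region, and the regions overlapped. Pfkp, the platelet-type subunit of phosphofructokinase at the committing step, measured 7.53, 7.02, 6.62 and 6.73 on the cortex arrays. On the medulla arrays it was nearly level, at 7.42, 7.46, 7.35 and 7.54. The cortex arrays thus spread over 1.88-fold and the medulla arrays over 1.14-fold, and cortex replicate 1 reached the medulla values while the other 3 cortex arrays lay below all of them.

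Cortex replicate 1, where Pfkp was highest in cortex, also had the highest summed signal of the thick ascending limb, collecting duct and endothelium lists among the cortex arrays. The 6 thick ascending limb markers summed to 8646 on it against 3375 to 7563 on the others, the 6 collecting duct markers to 1698 against 682 to 1513, and the 6 measured endothelial markers to 1470 against 813 to 1214. It was also the highest cortex array for the fibroblast sum, at 1343, the leukocyte sum, at 890, and the sum of the 2 measured erythrocyte markers, at 394, and the lowest for proximal tubule, at 10022. In medulla the collecting duct sum ran from 855 to 3426 while Pfkp ranged over 1.14-fold. The part of these lists in the Pfkp values was not tested. In homogenised tissue fewer cells of a type and less RNA in each of them cannot be told apart.

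The later steps were read from Pgk1 and Ldha. Pgk1, phosphoglycerate kinase, which makes the first ATP of the pathway, measured 8.48, 8.77, 8.74 and 8.77 in cortex, where replicate 1 was the low array. It measured 8.28, 8.82, 8.30 and 8.41 in medulla, where replicate 2 was the high one. Ldha, the lactate dehydrogenase subunit that favours lactate formation, measured 7.72, 7.91, 7.72 and 8.49 in cortex. In medulla it measured 7.66, 7.71, 7.59 and 8.28. The replicate 4 array was the highest of each region, by 0.70 log2 units over the mean of the other cortex arrays and by 0.62 over the mean of the other medulla arrays.

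On the replicate 4 arrays, where Ldha and Hk2 were highest, tubular injury markers were high too. Of the 10 injury genes 8 were also highest on both replicate 4 arrays, against 17.0% of all genes, and these were Havcr1, Lcn2, Spp1, Clu, Krt18, Krt8, Vim and Cd44. Of 7 measured leukocyte markers 2 were highest there, Ptprc and Cd68, and the list's summed signal ran from 461 to 890 in cortex and from 645 to 1290 in medulla. The 4 measured skeletal muscle markers, a tissue in which Hk2 is abundant, summed to 144 to 151 in cortex and 136 to 152 in medulla. Of these 4, 1 was highest on both replicate 4 arrays, Ckm. Medulla replicate 3, with the second highest injury sum of its region, had the lowest Ldha value of the medulla arrays, at 7.59. It had the second highest Hk2 value of the medulla arrays, at 5.77. Havcr1, the tubular injury marker that encodes Kim-1, was 8.95 there, against 4.54 and 4.80 on medulla replicates 1 and 2. In cortex Havcr1 was 7.54 on replicate 3, against 4.59 and 5.15 on replicates 1 and 2. On cortex replicate 3 Ldha was 7.72, nearly level with replicate 1, and Hk2 was 5.44, nearly level with replicate 2. The part of these cells or of injury in the Ldha and Hk2 values was not tested.

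The hypoxia response genes did not move as one group. Epas1, an oxygen-regulated alpha subunit of HIF that is prominent in endothelial and interstitial cells, measured 8.57, 8.71, 8.75 and 8.66 in cortex, a range of 1.13-fold. In medulla it measured 8.82, 8.63, 8.31 and 8.64, with replicate 3 the low array. Egln3, a prolyl hydroxylase that is itself induced by HIF and acts back on it, measured 6.59, 6.38, 6.14 and 5.85 in cortex. It measured 6.76, 6.54, 6.50 and 5.95 in medulla. In both regions replicate 4 was the lowest array and replicate 1 the highest, the reverse of Ldha for replicate 4, and Egln3 on replicate 4 stood 0.52 log2 units below the mean of the other cortex arrays and 0.65 below that of the other medulla arrays.

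Most markers of the distal nephron and of endothelium were low on the same arrays as Egln3. On both replicate 4 arrays the lowest value was found for 4 of 6 thick ascending limb markers, 4 of 6 collecting duct markers and 5 of 6 measured endothelial markers, against 16.0% of all genes. Ptger3, 1 of the 6 thick ascending limb markers, went the other way and was highest on both, beside 17.0% of all genes. Slc14a2 of the collecting duct list was lowest on cortex replicate 4 but, at 6.76 on medulla replicate 4, above medulla replicates 2 and 3. Low values were not confined to these lists, as 4 of 10 proximal tubule markers were also lowest on both replicate 4 arrays and 2 were highest. The thick ascending limb sum was 3375 on cortex replicate 4 and 4133 on medulla replicate 4, against 7142 to 8646 and 7118 to 8278 on the other arrays of each region. Their part in the Egln3 values was not tested.

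Adm, which encodes the vessel-relaxing peptide adrenomedullin, measured 5.45, 5.62, 5.79 and 5.49 in cortex. In medulla it measured 5.46, 5.45, 5.34 and 5.24. The regions overlapped narrowly, with medulla replicate 1 just above cortex replicate 1. These values lay only slightly above the array medians, which limits the size of any difference that can be read from them. The same limit holds for Hk2, with values from 5.44 to 6.02.

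**Figure D1:**
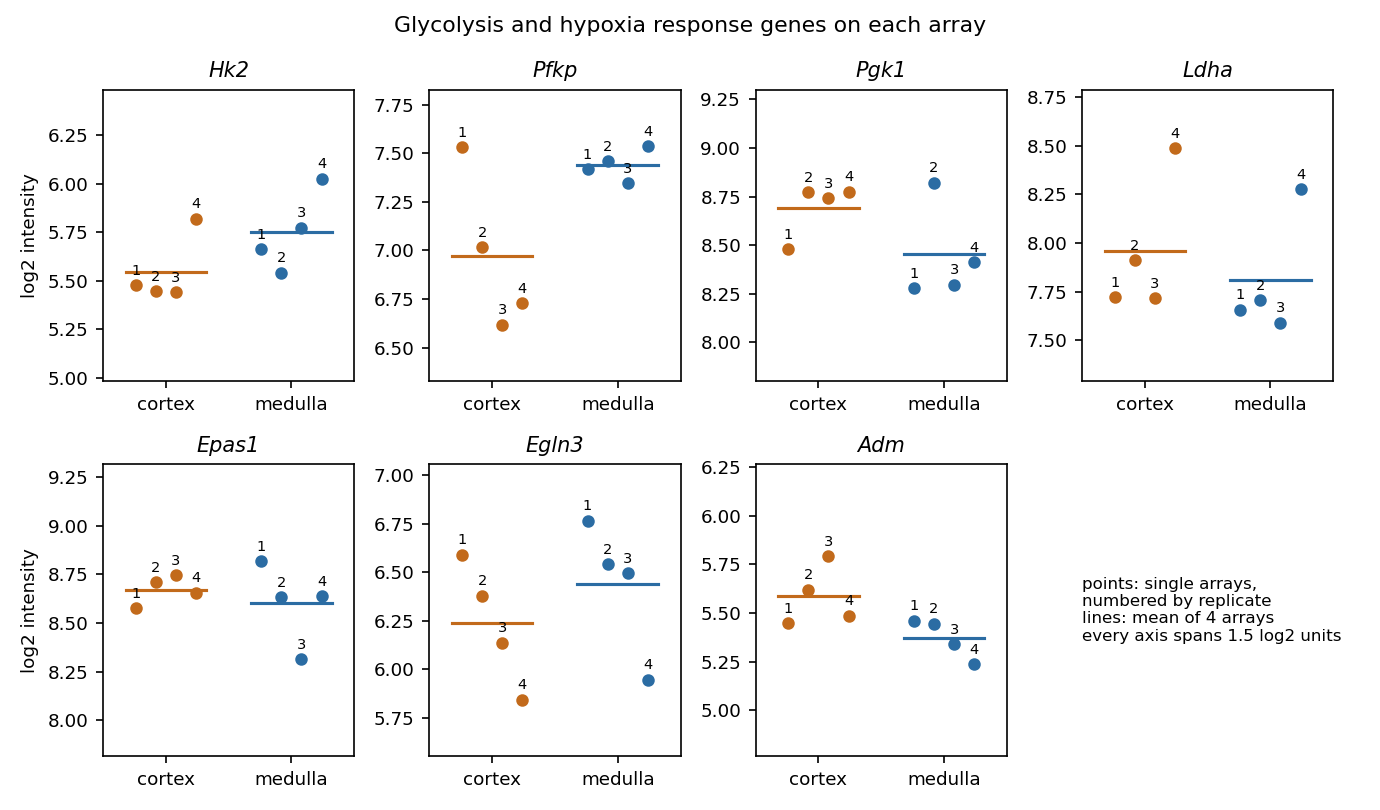
Log2 intensity of the 7 measured genes on each of the 8 arrays, with cortex in orange and medulla in blue, replicate numbers above the points and lines at the mean of 4 arrays; every vertical axis spans 1.5 log2 units. Ldha and Hk2 are highest and Egln3 lowest on replicate 4 of both regions, and Pfkp is spread in cortex and level in medulla.

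The labels allow 1 contrast, medulla against cortex. In it none of the 7 genes was called by limma, at an adjusted p under 0.05 with at least a 2-fold difference, against 0 of all 18166 genes tested (0%), and the adjusted p of the 7 lay between 0.875 and 0.945. At an unadjusted p under 0.05 limma gave 2 of the 7, Pfkp higher and Adm lower in medulla, beside 971 of all genes (5.35%), 2.77% higher and 2.58% lower. By the exact two-sided permutation test 0 of the 7 had an unadjusted p under 0.05, beside 515 of all genes (2.83%), and 4 against 4 arrays allow no p below 0.0286. In 0 of the 7 did the medulla arrays lie all above the cortex arrays, beside 1.10% of all genes, or all below them, beside 1.74%. All p-values rest on how far the arrays of a region scatter, and part of that scatter could be technical. It also takes in arrays that differed widely in tubular injury markers, and the share of either was not tested.

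Pfkp stood at 7.44 ± 0.08 (SD, n = 4) in medulla and 6.97 ± 0.41 (SD, n = 4) in cortex. They differed by 0.47 log2 units (SE 0.19), with a 95% interval from 0.03 to 0.90, which leaves out a 2-fold change, and limma's adjusted p was 0.875. It ran from 0.35 without cortex replicate 3 to 0.65 without cortex replicate 1. Mean Adm was 5.59 ± 0.16 (SD, n = 4) over the cortex arrays and 5.37 ± 0.10 (SD, n = 4) over the medulla arrays. It differed by -0.22 (SE 0.09), with a 95% interval from -0.42 to -0.01. Its exact permutation p was 0.0571, the lowest of the 7, and limma's adjusted p was 0.875. After quantile normalization its regions no longer overlapped, though barely, with the highest medulla array at 5.446 and the lowest cortex array at 5.449. The exact permutation p then became 0.0286, the smallest this design can give. After median centring and with probe set means the exact permutation p stayed at 0.0571.

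The other 5 differences were within 2 standard errors. Pgk1 was 8.45 ± 0.25 (SD, n = 4) in medulla and 8.69 ± 0.14 (SD, n = 4) in cortex, and differed by -0.24 with a 95% interval from -0.55 to 0.07. Hk2 differed by 0.20, with an interval from -0.09 to 0.50. Ldha differed by -0.15, from -0.65 to 0.35, and its sign turned to 0.02 without cortex replicate 4. Egln3 differed by 0.20, from -0.29 to 0.69, and Epas1 by -0.07, from -0.31 to 0.17, or 0.03 without medulla replicate 3. None of the 7 intervals reached a 2-fold change in either direction. The median difference of the 7 was -0.07, beside -0.01 over all genes.

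**Figure D2:**
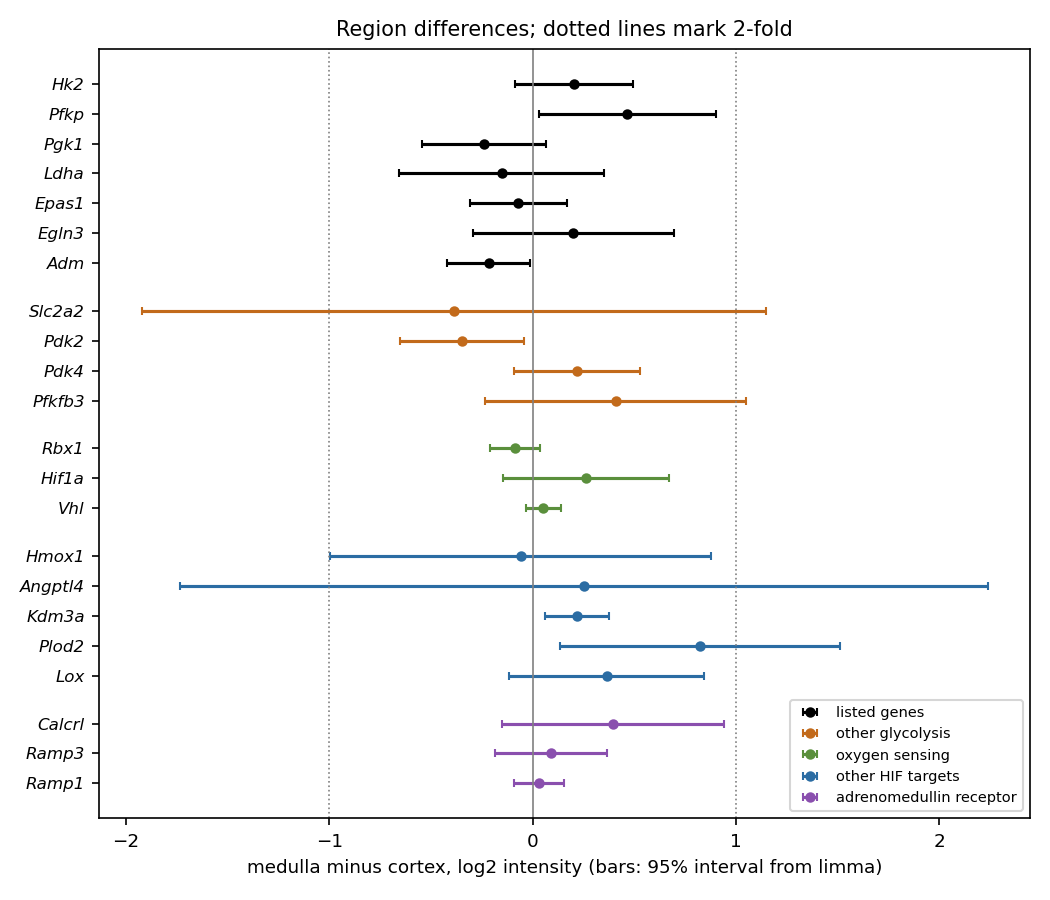
Medulla minus cortex difference in log2 intensity for the 7 measured genes and for the genes named from 4 related lists, with bars for limma's 95% interval and dotted lines at 2-fold. The 7 intervals, in black, stay inside the dotted lines, and those of Slc2a2, Hmox1 and Angptl4 are wide.

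The second question, which the design text raises, is which genes differ at least 2-fold within cortex and within medulla. The labels do not say which arrays of a region were set against which, so the range from the lowest to the highest array was taken, with no test. A 2-fold range was reached by 0 of the 7 genes in cortex, 0 in medulla and 0 in both, against 3.60%, 3.80% and 2.21% of all genes. Pfkp came nearest in cortex, with 1.88-fold, and Egln3 in medulla, with 1.76-fold. The cortex range was 1.71-fold for Ldha and 1.68-fold for Egln3, and the medulla range of Ldha 1.61-fold.

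These ranges were wider than those of most genes, and several depended on 1 array. Ldha was wider than 93.5% of genes in cortex and 89.7% in medulla, and Egln3 than 93.1% and 93.5%. All genes were taken here with no filter on signal, dim ones included. By mean signal Ldha stood at percentile 92.1 of all genes and Egln3 at 67.9. At a 1.5-fold range 3 of the 7 genes passed in cortex, Pfkp, Ldha and Egln3, beside 11.4% of all genes. In medulla 2 passed, Ldha and Egln3, beside 15.1%, and the same 2 passed in both regions, beside 8.12%. Without replicate 4 of both regions, a setting for this count added after the data were seen, 1 of the 7 passed in cortex, Pfkp, and 0 in medulla. Without cortex replicate 1 the Pfkp range in cortex was 0.40 log2 units, against 0.91 with all arrays, and below 1.5-fold. With replicate 4 of both regions left out, the Ldha range was 0.19 log2 units in cortex and 0.12 in medulla, against 0.77 and 0.69 with all arrays. In that same setting the Egln3 range was 0.45 and 0.27, against 0.75 and 0.82, and the Hk2 range 0.04 and 0.23, against 0.38 and 0.48.

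**Figure D3:**
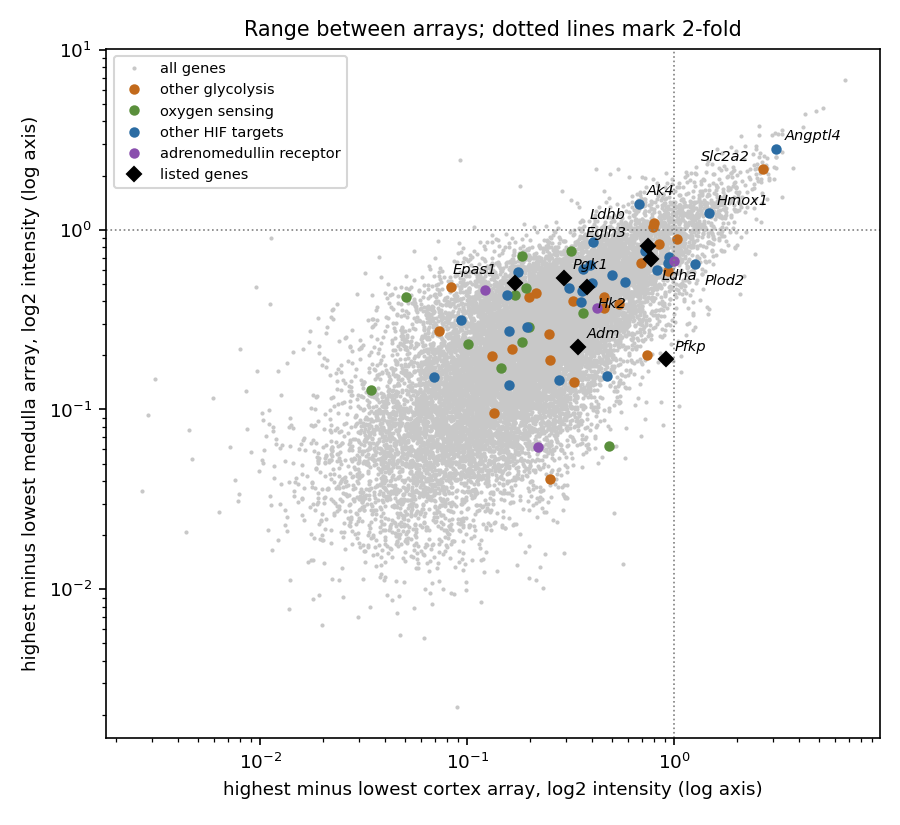
Range between the 4 cortex arrays, horizontal, against the range between the 4 medulla arrays, vertical, in log2 intensity on log axes, for all 18166 genes in grey, related lists in colour and the 7 measured genes as black diamonds. The diamonds lie below and to the left of the dotted 2-fold lines, Ldha and Egln3 near the corner where they cross, and Pfkp has a wide cortex and a narrow medulla range.

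The rest of glycolysis was read from a list of 29 further genes of glucose transport, glycolysis, lactate handling and the control of pyruvate entry into mitochondria, of which 23 were measured. In the contrast of the regions limma called 0 of the 23 at the same rule. At an unadjusted p under 0.05 it gave 1 of the 23, beside 5.35% of all genes, so the count was near the background. This was Pdk2, a kinase that holds pyruvate dehydrogenase in check, with a difference of -0.35 ± 0.13 (SE). The median difference of the list was -0.02. A 2-fold range was reached by 2 of 23 in cortex and 3 of 23 in medulla, and by 1 in both, Slc2a2, beside 3.60%, 3.80% and 2.21% of all genes.

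Slc2a2, the glucose transporter of the basolateral proximal tubule membrane, measured 6.10, 6.70, 6.82 and 8.79 in cortex. In medulla it measured 5.79, 6.46, 6.65 and 7.96. Replicate 4 was the highest and replicate 1 the lowest array of each region, and without replicate 4 the range was 0.72 in cortex and 0.86 in medulla, under 2-fold in both. Of the 10 proximal tubule markers, 2 were highest on both replicate 4 arrays, Cubn and Slc5a2, beside 17.0% of all genes. Another 4 were lowest there, Slc34a1, Aqp1, Miox and Fbp1, beside 16.0%. Their part in the Slc2a2 values was not tested.

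Pfkfb3, the enzyme that makes the allosteric activator of phosphofructokinase, reached 7.88 on medulla replicate 1 against 6.79 to 7.01 on the other medulla arrays, and 6.33 to 7.13 in cortex. Pdk4, the starvation-induced kinase of pyruvate dehydrogenase, differed between the regions by 0.22 ± 0.13 (SE). In all, 6 of the 23 genes were highest on both replicate 4 arrays and 6 were lowest there, against 17.0% and 16.0% of all genes, so the list had no common direction on these arrays. Without cortex replicate 4 the count of 2-fold ranges in cortex was 0, and without cortex replicate 1 it was 1. In medulla it was 1 without replicate 2 or without replicate 4.

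All 12 listed genes of oxygen sensing were measured. Between the regions limma called 0 of them, 0 had an unadjusted p under 0.05, beside 5.35% of all genes, and 0 reached a 2-fold range in either region, beside 3.60% in cortex and 3.80% in medulla. The median range was 0.18 log2 units in cortex and 0.31 in medulla, beside 0.21 and 0.25 over all genes. Vhl, the recognition subunit that targets hydroxylated HIF, ranged over 0.03 in cortex and 0.13 in medulla, and Rbx1, a subunit of the same ligase, over 0.15 and 0.17. Hif1a, the other main oxygen-regulated alpha subunit, measured 8.41, 8.24, 8.15 and 8.47 on the cortex arrays. On the medulla arrays it measured 8.37, 8.19, 8.81 and 8.95. It was highest on the replicate 4 array of each region, and its medulla arrays fell into a lower and a higher pair while Epas1 had its low value on medulla replicate 3. HIF is controlled mainly through the stability of its protein, which these arrays do not measure.

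Of 27 further HIF targets 26 were measured, and again limma called 0 between the regions. At an unadjusted p under 0.05 it gave 2, both higher in medulla, beside 2.77% of all genes in that direction. Plod2, a collagen lysyl hydroxylase, differed by 0.82 ± 0.30 (SE), and Kdm3a, a histone demethylase, by 0.22 ± 0.07. Kdm3a measured 6.73, 6.64, 6.88 and 6.56 in medulla and 6.50, 6.48, 6.44 and 6.53 in cortex, and was the 1 gene of the list whose regions did not overlap, beside 1.10% of all genes with medulla above. Lox, the collagen cross-linking oxidase, differed by 0.36 ± 0.21.

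A 2-fold range in both regions was found in 2 of the 26 HIF targets, Angptl4 and Hmox1, beside 2.21% of all genes. Angptl4, an inhibitor of lipoprotein lipase, read 4.69, 5.00, 5.26 and 7.80 in cortex, then 5.35, 4.98, 5.62 and 7.81 in medulla. Hmox1, the inducible heme oxygenase, read 4.96, 5.12, 5.12 and 6.42 in cortex, then 5.02, 5.14, 4.99 and 6.22 in medulla. Both genes are also induced by factors other than HIF, and in both the replicate 4 array stood far above the rest of its region. Without replicate 4 the Angptl4 range was 0.57 in cortex and 0.64 in medulla, and that of Hmox1 was 0.16 and 0.15, so that neither reached 2-fold.

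The HIF targets split on the replicate 4 arrays. On both of them 7 of the 26 were highest, P4ha1, P4ha2, Hmox1, Edn1, Angptl4, Bhlhe40 and Lox, against 17.0% of all genes. Another 10 were lowest on both, Vegfa, Car12, Bnip3l, Ankrd37, Mxi1, Fam162a, Stc2, Ak4, Insig2 and Cited2, against 16.0%. Vegfa, the vascular growth factor, lay between 8.34 and 8.53 on cortex replicates 1 to 3 and was 8.14 on replicate 4, and the medulla values were 8.19 to 8.57 and 7.94. Vegfa was chosen after its values were seen. The listed target Ldha thus stood with the first set and Egln3 with the second.

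The receptor of adrenomedullin is made of Calcrl with Ramp2 or Ramp3, and all 4 genes of that list were measured, Ramp1 included. None was called by limma, beside 0% of all genes, and 0 had an unadjusted p under 0.05, beside 5.35%. Calcrl read 6.60, 6.06, 5.90 and 5.60 in cortex, then 6.50, 6.21, 6.85 and 6.19 in medulla. Calcrl was lowest on replicate 4 in both regions, beside 16.0% of all genes, but in medulla replicate 2 was nearly as low. Most endothelial markers were lowest on the replicate 4 arrays too, and their part in the Calcrl values was not tested. Ramp3 differed between the regions by 0.09 ± 0.12 (SE) and Ramp1 by 0.03 ± 0.05.

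**Figure D4:**
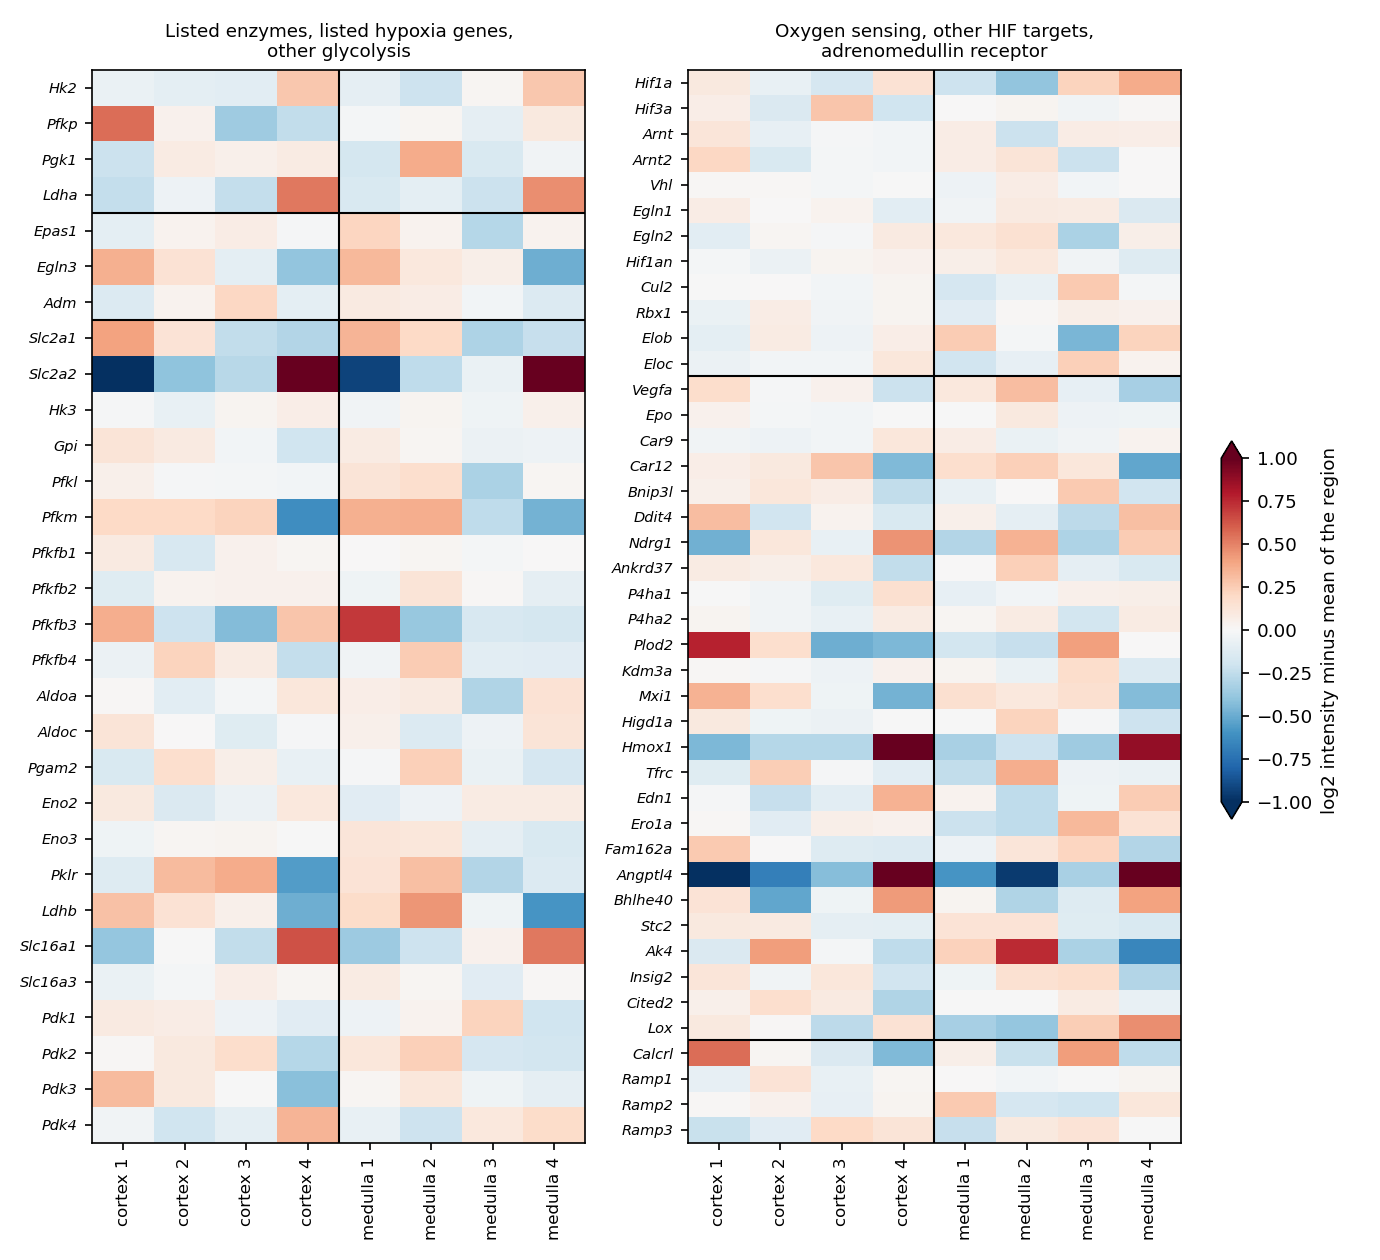
Deviation of each array from the mean of its region, in log2 intensity, for the 7 measured genes and 23 other genes of glycolysis on the left and for oxygen sensing, other HIF targets and the adrenomedullin receptor on the right; colours saturate at 1 log2 unit. Slc2a2, Hmox1 and Angptl4 are high on replicate 4 of both regions, and Ldha is raised there while Egln3 is lowered.

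The closest genes in pattern were sought for Egln3, Ldha and Hk2, the 3 that varied most in whichever region they varied less. They were found by the root mean square difference of the deviations from the mean of the region over all 8 arrays, out of 18166 genes. For Egln3, whose own root mean square deviation was 0.29 log2 units, they were Cgnl1, a junction protein gene, at 0.037, Emcn, the endothelial sialomucin gene of the endothelium list, at 0.056, and Tanc1 at 0.066. For Ldha, also with a deviation of 0.29, they were Pgs1 at 0.049, the nuclear lamin gene Lmna at 0.049 and the tyrosyl-tRNA synthetase gene Yars1 at 0.050. For Hk2, with a deviation of 0.17, they were the mitochondrial calcium uniporter gene Mcu at 0.026, Mta1 at 0.027 and the nuclear pore gene Nup153 at 0.031. Likeness over 8 arrays that share one extreme array in each region is a description of these samples.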

How the data were processed

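Total RNA from homogenised kidney was hybridised to 8 Affymetrix arrays, and the authors deposited a table with the intensity of 29870 probe sets. The submitters' processing notes name Expression Console and the RMA method; no version or filter is stated in the sources used. The values, 17.3 to 6229, were linear and already normalized between arrays, so log2 was taken with no pseudocount. The platform annotation named 18511 probe sets with 1 symbol, 575 with several and 10784 are unnamed here. Of the 18511, 18394 matched a rat RefSeq gene (GRCr8) and 0 symbols changed. For the 291 genes with several probe sets the one with the highest mean was kept. No array pair shared more than 1 identical value.

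The contrast of medulla and cortex was fitted over 18166 genes (limma 3.58.1, R 4.3.3) with Benjamini-Hochberg adjustment, and with an exact permutation test over 70 relabellings. Named besides the 10 listed genes were, per related list, genes called, genes with a 2-fold range in both regions and the 3 with the smallest p. Also named were the 3 genes closest to each of the 3 listed genes that varied most in whichever region they varied less. The script was first tested on simulated data. The genes and lists were chosen with earlier results of these data known. Alternatives were quantile normalization, median centring, probe set means, a filter on dim genes, other limma settings, other fold thresholds and left-out arrays.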

Additional observations from a re-analysis of the deposited data

Results flagged for a closer look

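In 44 sets of 4 arrays, the listed and named genes in each region, 5 had 1 array farther from the others than Dixon's 95% limit of 0.829, taken as the gap to the nearest array over the whole range. Chance gives about 1 in 20 where a gene was not chosen by its values, and genes that vary together are not independent. Hk2 was high on cortex replicate 4, with a gap of 0.904 of the range. Pgk1 was low on cortex replicate 1, with a gap of 0.888, in a range of 0.29 log2 units. Ldha was high on medulla replicate 4, with a gap of 0.829, just past the limit. In cortex its gap on replicate 4 was 0.748, within the limit. Hmox1, the heme oxygenase, was high on cortex replicate 4 and on medulla replicate 4, with gaps of 0.889 and 0.877. It was named for its 2-fold range in both regions, which rested on those same arrays. Its flags thus come from the values that chose it and cannot be set beside 1 in 20.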

How the results depend on the processing

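Under every alternative tried, limma called 0 of the 7 measured genes and 0 of all genes between the regions, with any 1 array left out (0 to 0) and with both replicate 4 arrays left out. Over these alternatives the adjusted p of the 7 genes ran from 0.467, for Pfkp without cortex replicate 1, to 1.00. Of 105 recomputed region differences 2 changed sign. Left-out arrays moved Ldha between -0.31 and 0.0246, the latter without cortex replicate 4, and Epas1 between -0.14 and 0.0253, the latter without medulla replicate 3. With a 1.5-fold in place of a 2-fold range, 3 of the 7 genes passed in cortex, 2 in medulla and 2 in both, against 0. After quantile normalization 1 gene, Adm, had an exact permutation p under 0.05, against 0 in the main setting, after median centring and with probe set means. No paired analysis was possible because the labels number the 8 samples in 1 series and tie no cortex sample to a medulla sample. With 4 arrays a region and no detection calls, small differences and dim genes such as Adm and Hk2 are weakly measured.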

Other observations

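The isoenzymes and the transporter of lactate, chosen after their values were seen, were unevenly placed on the arrays. Ldhb, the lactate dehydrogenase subunit typical of oxidative tissue, read 9.50, 9.35, 9.25 and 8.71 in cortex, then 9.23, 9.48, 9.00 and 8.45 in medulla. It was lowest on the replicate 4 array of each region, where Ldha was highest. Relative to the mean of the region, the log2 ratio of Ldha to Ldhb was 1.02 on cortex replicate 4 and 1.06 on medulla replicate 4, and between -0.53 and -0.19 on the other cortex arrays and between -0.54 and -0.18 on the other medulla arrays. Slc16a1, the monocarboxylate transporter that carries lactate, lay between 5.71 and 6.09 on cortex replicates 1 to 3 and reached 6.73 on replicate 4, and the medulla values were 5.73 to 6.14 and 6.62.

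Among the phosphofructokinase genes, Pfkm, the muscle-type subunit, stood at 7.11 to 7.14 on cortex replicates 1 to 3 and at 6.29 on replicate 4. In medulla it measured 6.62 on replicate 3 and 6.40 on replicate 4 against 7.23 and 7.24 on replicates 1 and 2. Pfkp had no such low value in medulla, where it stayed between 7.35 and 7.54. Ak4, a mitochondrial adenylate kinase among the HIF targets, measured 8.73 on medulla replicate 3 and 8.39 on medulla replicate 4 against 9.28 and 9.79 on the other medulla arrays. Limma's adjusted p between the regions was at least 0.875 for each of these genes.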
